A study of Mus musculus with 703 samples.

Results

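Nnt encodes nicotinamide nucleotide transhydrogenase, and its transcript was followed in gastrocnemius, a calf muscle, across 20 strains of mice. It was chosen by its symbol as 1 of the 19088 genes in the deposited table, because 1 founder of these strains is known to carry a deletion in it. The strains are CC-RIX strains, each the F1 offspring of 2 Collaborative Cross lines. A Collaborative Cross line is inbred and carries a fixed mixture of the genomes of 8 founder strains, and 19 such lines were parents here. The labels call the genotype of all these animals outbred. Bulk RNA sequencing gave 1 library per animal. From 6 weeks of age the mice ate a control diet with 10% fat and fiber or a diet with 44% fat and fiber, and the study calls the latter high in fat and sugar. Untreated animals were 236 females and 233 males, and by diet 234 on 10% and 235 on 44% fat. Another 234 animals had metformin, a glucose-lowering drug, in their water (5 mg/mL) once they were 7 months old. Metformin groups held 57 females and 59 males on 10% fat, and 59 females and 59 males on 44% fat. The study had cohorts of 6 and 12 months, and the labels give no animal's age, so metformin and age cannot be told apart here.

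The transhydrogenase sits in the inner mitochondrial membrane. It uses the proton gradient to move electrons from NADH to NADP, and is a source of the NADPH with which mitochondria reduce glutathione and thioredoxin and so remove peroxides. The isocitrate dehydrogenase Idh2 and the malic enzyme Me3 are other sources of NADPH in the same compartment. C57BL/6J, a founder of the Collaborative Cross, is known to lack several exons of Nnt, and this has made the gene a common suspect in metabolic differences between substrains of C57BL/6. In the GRCm38 assembly, the gene (ENSMUSG00000025453) spans positions 119335448 to 119408997 of chromosome 13 on the minus strand. That assembly was made from C57BL/6J itself. The sources used here do not say which exons of Nnt the authors' founder transcriptomes held, and a gene-level count does not show which exons were read. The founder haplotypes of the lines at Nnt were not used here, so no line is assigned the deletion. GENCODE M21 also names a second, overlapping gene model Nnt, which is not a row of the deposited table, and whether reads were divided with it cannot be told from the counts.

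Levels are given as CPM, the counts of a gene in every 1 M counts of a library after scaling of library sizes, so that they compare animals for 1 gene and not genes with each other. Libraries held 27.4 M to 96.1 M counts with a median of 47.9 M. Nnt itself had 1168 counts in the library where it was lowest, a median of 4929 and at most 13107, so counting error was small beside the differences between animals. Expression went against the labelled sex in 15 libraries and against the labelled strain in 4. The latter were males on 44% fat without metformin, and in each direction 2 libraries labelled (CC024/GeniUncJ x CC002/UncJ)F1 and (CC002/UncJ x CC075/UncJ)F1 had the profile of the other strain. All were kept, and values without them are given where they matter. Hepatocyte markers exceeded 20 times their median in 64 libraries. The fast-fibre genes that define this muscle summed to at least 82700 CPM in every library. The labels call each animal a biological replicate of its own, so a p-value reflects the spread between animals. The study assigned housing and diets by litter. Neither litter nor cage is a term in the tests, which treat animals as independent.

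Nnt differed more between strains than between sexes or diets. In untreated animals the strain means ran from 59.3 ± 11.2 CPM (SD, n = 24) in (CC051/TauUncJ x CC059/TauUncJ)F1 to 151 ± 21.9 CPM (SD, n = 24) in (CC043/GeniUncJ x CC011/UncJ)F1, a 2.55-fold range. In the lowest strain the animals lay between 39.1 and 90.2 CPM with a median of 59.3. In the highest the median was 149.1 and the highest animal had 196.1 CPM. Its lowest animal was still above the highest animal of the lowest strain. Strains differed in Nnt by an F of 110.5 over 19 terms in edgeR's quasi-likelihood test, with an adjusted p of 2.8e-154. A difference between strains was common, since 93.2% of the 16384 genes tested were called. Strain took 68.4% of the variance of Nnt on the log2 scale, against a median of 15.3% over all genes, and 3.45% of genes had a larger share. Sex took 15.7% against a median of 1.59%, and diet took 0.314% against 0.0725%.

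The strain means formed a rising series, and its lower end is described first. Just above the lowest strain came (CC051/TauUncJ x CC060/UncJ)F1, with animals from 41.7 to 92 CPM and a median of 58.8. (CC030/GeniUncJ x CC002/UncJ)F1 ranged from 48.8 to 83.7 CPM with a median of 64.9. (CC051/TauUncJ x CC019/TauUncJ)F1 was the most spread of the low strains, from 38.3 to 107.4 CPM with a median of 70. The means of (CC011/UncJ x CC027/GeniUncJ)F1 and (CC024/GeniUncJ x CC002/UncJ)F1 were 75.3 ± 8.77 and 76.3 ± 13.2 CPM (SD, n = 24 each). Thus 6 strains had means under 80 CPM, a limit chosen after the values were seen. The next strain, (CC075/UncJ x CC042/GeniUncJ)F1, had a mean of 89 ± 18.2 CPM (SD, n = 24), which was higher by 0.21 ± 0.05 (SE) on the log2 scale with an adjusted p of 0.000689 (edgeR).

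Neighbours in this order mostly did not differ beyond their spread. Of 19 neighbouring pairs, 3 were called by edgeR at an adjusted p under 0.05, counted over all genes of the pair. (CC051/TauUncJ x CC060/UncJ)F1 and the strain above it, (CC030/GeniUncJ x CC002/UncJ)F1, differed by 0.14 ± 0.06 (SE, log2) with an adjusted p of 0.0449, the sixth and seventh as given above, and the seventh and eighth by 0.16 ± 0.05 with an adjusted p of 0.0132. From the eighth strain, (CC002/UncJ x CC075/UncJ)F1 at 99.1 ± 20 CPM (SD, n = 24), to the twentieth, the smallest adjusted p of a step between neighbours was 0.32. Steps that are small one by one added up. Over all 190 pairs of strains, 158 pairs (83.2%) were called for Nnt, where 34.5% of the tests of a gene in a pair were called over all genes. Each of the 84 pairs that join 1 of the 6 lowest strains with 1 of the 14 others was called. That split was drawn from these same means, so the calls across it do not show a separate set.

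The middle and upper strains can be read by their parents. (CC019/TauUncJ x CC042/GeniUncJ)F1 had 104.4 ± 29.5 CPM (SD, n = 24), (CC042/GeniUncJ x CC060/UncJ)F1 105.8 ± 20.8 (n = 22), and (CC042/GeniUncJ x CC040/TauUncJ)F1 106.7 ± 16.2 (n = 24). Above them stood (CC019/TauUncJ x CC075/UncJ)F1 at 111.7 ± 23.8 CPM (n = 24) and (CC011/UncJ x CC005/TauUncJ)F1 at 115.4 ± 15.2 (n = 26). Means of 122 to 131 CPM were found in (CC002/UncJ x CC043/GeniUncJ)F1, (CC012/GeniUncJ x CC002/UncJ)F1, (CC004/TauUncJ x CC019/TauUncJ)F1 and (CC001/UncJ x CC042/GeniUncJ)F1. (CC043/GeniUncJ x CC042/GeniUncJ)F1 had 136 ± 19.6 CPM (SD, n = 25) and (CC009/UncJ x CC013/GeniUncJ)F1 138 ± 17.4 (n = 10). The last of these was sequenced in 1 range of identifiers alone, so its level and that range cannot be told apart.

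**Figure D1:**
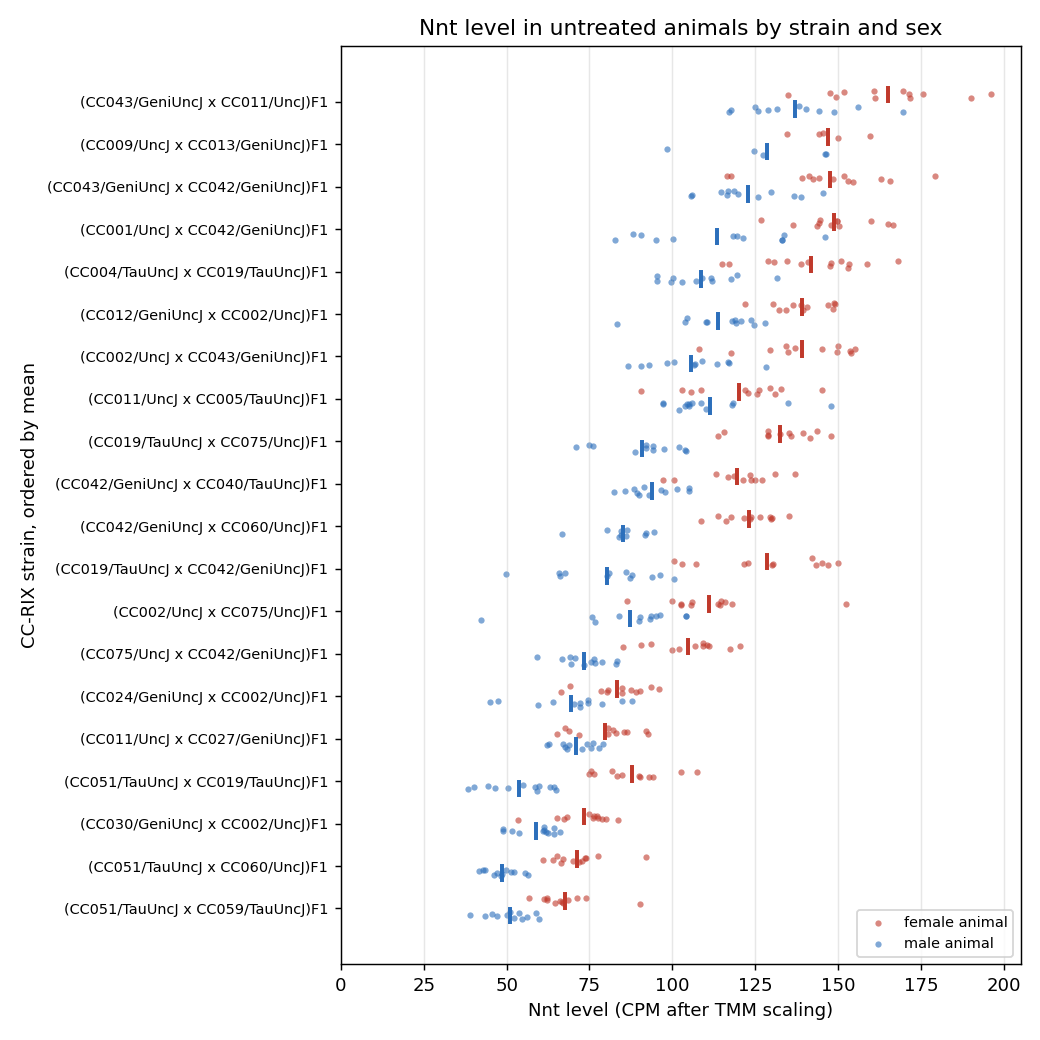
Nnt level in CPM (x axis) of every untreated animal, by strain (y axis, ordered by strain mean) and sex, where points are animals and vertical bars are means of a sex within a strain. Strain means rise from 59.3 to 151 CPM, and the female mean lies to the right of the male mean in 20 of 20 strains.

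Parental lines sorted the strains, as the names above already show. All 3 strains with CC051/TauUncJ as a parent were among the 4 lowest, with means of 59.3, 60 and 70.8 CPM. All 3 with CC043/GeniUncJ were among the 7 highest, at 122, 136 and 151 CPM. Other lines gave both low and high offspring. The 3 strains with CC011/UncJ had means of 75.3, 115.4 and 151 CPM, and the 5 with CC002/UncJ ran from 66 to 126 CPM.

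If the parents add up, a strain's level is the sum of 2 line contributions, and these were estimated by weighted least squares from the strain means adjusted for sex, diet and identifier range. CC051/TauUncJ contributed 2.47 ± 2.23 CPM (SE) and CC027/GeniUncJ 7.74 ± 4.95 CPM. CC030/GeniUncJ followed at 21.6 ± 3.61 CPM and CC024/GeniUncJ at 31.7 ± 3.98 CPM. In the middle, 10 lines lay between 44.4 ± 3.09 CPM for CC002/UncJ and 67.4 ± 4.37 CPM for CC011/UncJ. The highest contributions were those of CC012/GeniUncJ at 81.8 ± 3.9 CPM, CC043/GeniUncJ at 83.5 ± 3 CPM and CC001/UncJ at 86 ± 4.11 CPM. The error bars of these 3 overlapped. Contributions of 9 of these 17 lines rest on a single strain and so take up all of what is particular to it. CC009/UncJ and CC013/GeniUncJ were parents of 1 strain only, shared with no other line, and could not be separated.

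Additivity was itself open to a check wherever 4 strains close a chain of 4 lines, because the alternating sum of their means is then 0 if parents add up. Around the chain of CC002/UncJ, CC075/UncJ, CC042/GeniUncJ and CC043/GeniUncJ the sum was 23 ± 5.35 CPM (SE), with a 95% interval of 12.5 to 33.5. There, (CC002/UncJ x CC075/UncJ)F1 was 8.36 CPM above its fitted value and (CC043/GeniUncJ x CC042/GeniUncJ)F1 was 6.65 above, while (CC002/UncJ x CC043/GeniUncJ)F1 was 5.8 below. The SE of these strain means was 3.23, 2.88 and 2.69 CPM, so each misfit was more than its SE. In metformin-treated animals the same sum was 11.4 CPM with an interval of -1.5 to 24.3. The second chain, of CC051/TauUncJ, CC019/TauUncJ, CC042/GeniUncJ and CC060/UncJ, gave 10.2 ± 5.2 CPM (SE) with an interval of 0.0394 to 20.4. It included 0 once the libraries against their label were left out, at 10.1 CPM with an interval of -0.115 to 20.3. The errors of the contributions do not include such misfits.

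**Figure D2:**
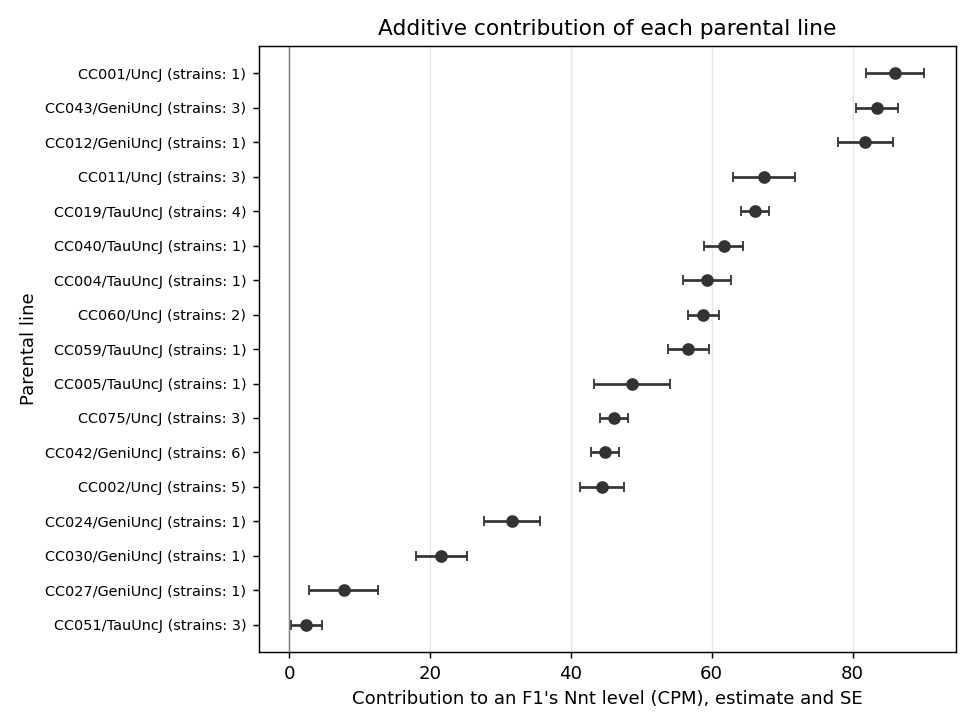
Estimated contribution of each of 17 parental lines to the Nnt level of its F1 offspring in CPM (x axis, points with SE bars), with the lines in order (y axis) and the number of strains behind each. CC051/TauUncJ at 2.47 CPM and CC027/GeniUncJ at 7.74 CPM lie closest to 0, and CC001/UncJ is highest at 86 CPM.

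The spread of Nnt within strains lay in the upper part of the range for genes of its level. After strain, sex and diet were accounted for, its SD was 0.16 on the log2 scale, where the 731 genes within 0.5 log2 CPM of its mean had a median of 0.14. Nnt stood at the 68.8th percentile of them. By strain the SD ran from 0.09 in (CC042/GeniUncJ x CC060/UncJ)F1 to 0.28 in (CC002/UncJ x CC075/UncJ)F1. The high value in the latter moved with the libraries against their label. Its animals lay between 42.3 and 152 CPM, the lowest at 42.3 CPM had the profile of another strain, and without the 2 such libraries the range was 75.7 to 152 CPM and the SD fell from 20 to 15.8 CPM. With both sexes together, the coefficient of variation ran from 11.6% in (CC011/UncJ x CC027/GeniUncJ)F1 to 28.2% in (CC051/TauUncJ x CC019/TauUncJ)F1 and (CC019/TauUncJ x CC042/GeniUncJ)F1. Those last strains also had the widest gaps between the sexes.

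Females had more Nnt transcript than males in every strain. Untreated females ranged from 53.5 to 196 CPM with a median of 119.5, and males from 38.3 to 169.6 CPM with a median of 89.8. The SD was 31.6 CPM in females (n = 236) and 28.3 CPM in males (n = 233). Over all strains together the sexes overlapped widely. In the model with strain, males were lower by 0.39 ± 0.02 (SE) on the log2 scale, with an adjusted p of 1.64e-71 (edgeR). Sex differences were common in this muscle, with 65.2% of genes called and 35.7% lower in males. The female mean was the higher in 20 of 20 strains.

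The size of the sex difference depended on strain. In (CC051/TauUncJ x CC019/TauUncJ)F1, females lay between 74.9 and 107.4 CPM and males between 38.3 and 65 CPM, a 1.63-fold ratio of means (87.9 ± 10.4 against 53.8 ± 9.51 CPM, SD, n = 12 each). In (CC019/TauUncJ x CC042/GeniUncJ)F1 the ratio was 1.6, with females at 128.6 ± 17.8 and males at 80.2 ± 15 CPM (SD, n = 12 each). At the other end, (CC011/UncJ x CC005/TauUncJ)F1 had a ratio of 1.08, with females at 120.2 ± 15.3 (SD, n = 12) and males at 111.3 ± 14.4 CPM (SD, n = 14). That strain also held 5 of the 15 untreated libraries that went against a label. The interaction of sex with strain had an F of 4.95 over 19 terms and an adjusted p of 5.66e-09 (edgeR), and 29.4% of genes were called for it. Without the libraries against their label the F was 4.93. In the upper identifier range alone, with 69 untreated animals, it was 2.24 with an adjusted p of 0.304. Every female was above every male in 6 strains, where 0.361% of all gene and strain combinations had that separation. Of these 6, 3 had CC019/TauUncJ as a parent, out of 4 strains with that line, and 3 had CC042/GeniUncJ, out of 6. CC075/UncJ and CC051/TauUncJ were each a parent of 2, out of 3 strains, and CC060/UncJ of 2 out of 2.

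Genes of slow muscle fibres moved with sex in the same direction as Nnt. All 7 slow-fibre markers were lower in males, among them Myh7, the slow myosin heavy chain, by a log2 fold change of -0.84 ± 0.03 (SE), and the slow troponins Tnni1 (-0.73 ± 0.03) and Tnnc1 (-0.7 ± 0.03). The median over the list was -0.66 against -0.018 over all genes. The summed list ran from 1180 to 4250 CPM in females with a median of 2120, and from 488 to 2550 CPM in males with a median of 1370. It too was lower in males in 20 of 20 strains, by 1.2-fold to 2.51-fold. Over the 20 strains, the log2 ratio of females to males in the slow-fibre sum and in Nnt had a Pearson's r of 0.776, from the same libraries. With the log2 of the slow-fibre sum as a covariate, the sex difference in Nnt went from -0.39 to -0.10, with an adjusted p of 1.51e-05 (edgeR). In bulk muscle, fewer slow fibres and less of these transcripts per fibre cannot be told apart. Adipocyte markers were also lower in males (7 of 8, with Retn at -1.18 ± 0.07), and the sex difference in Nnt was -0.41 with their sum as a covariate.

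**Figure D3:**
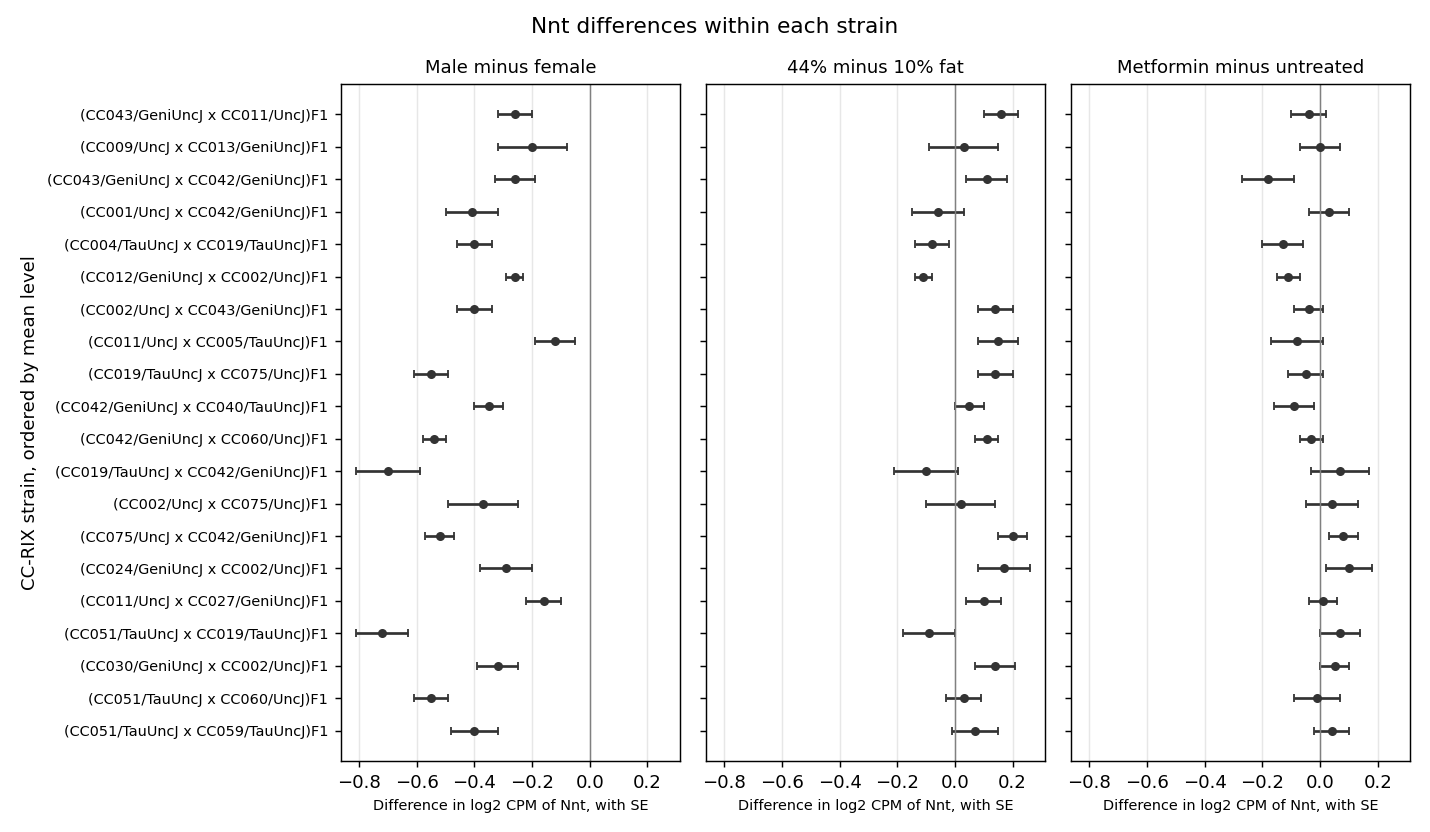
Differences in Nnt within each strain on the log2 scale (x axes, points with SE bars), as male minus female and 44% minus 10% fat in untreated animals and metformin minus untreated in all animals, with strains in order of their mean (y axis). The sex differences lie between -0.72 and -0.12, all below 0, while those for diet and metformin fall on both sides of 0.

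The diet difference in Nnt was small. Animals on 10% fat ranged from 39.1 to 172 CPM with a median of 99.2, and those on 44% fat from 38.3 to 196 CPM with a median of 104.2. Their means of 100.7 ± 31.8 CPM (SD, n = 234) and 104.7 ± 33.8 CPM (SD, n = 235) differed by far less than the spread between strains. Given strain and sex, Nnt rose on 44% fat by 0.06 ± 0.02 (SE) on the log2 scale, with a 95% interval of 0.03 to 0.10 and an adjusted p of 0.00488 (edgeR). This test treats animals as independent, though diets were assigned by litter. For diet 18.4% of genes were called, 9.55% as higher and 8.82% as lower on 44% fat. Nnt was higher on 44% fat in 15 of 20 strains and lower in 5.

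By strain, the largest rise on the log2 scale was in (CC075/UncJ x CC042/GeniUncJ)F1, from 83.6 ± 17.3 to 94.5 ± 18.1 CPM (SD, n = 12 each), or 0.2 ± 0.05 (SE). In CPM the rise was larger in the highest strain, (CC043/GeniUncJ x CC011/UncJ)F1, which went from 143.1 ± 18.8 to 158.9 ± 22.6 CPM. In (CC012/GeniUncJ x CC002/UncJ)F1 the means were 132.5 ± 13.7 CPM on 10% and 120.2 ± 17.4 CPM on 44% fat. The test of whether diet acted differently between strains gave an adjusted p of 0.381 (edgeR, F of 1.6 over 19 terms, 3.27% of genes called). Nor was the interaction of diet with sex called, at -0.02 ± 0.04 (SE, log2) with an adjusted p of 0.945, where 0.226% of genes were. These strain values are therefore a description. In the lower identifier range alone, with 400 untreated animals, the diet difference was 0.06 with an adjusted p of 0.0164, and in the upper range alone 0.05 with an adjusted p of 0.732.

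No difference with metformin was detected. Treated animals ranged from 28.3 to 174 CPM with a median of 99.3, and untreated animals from 38.3 to 196 CPM with a median of 102.1. The means were 101.1 ± 30.3 CPM (SD, n = 234) and 102.7 ± 32.8 CPM (SD, 236 females and 233 males). The log2 difference was -0.0043 ± 0.02 (SE) with a 95% interval of -0.03 to 0.03 and an adjusted p of 0.889 (edgeR), while 16.2% of genes were called. Within the lower identifier range it was 0.00025 and within the upper range -0.01. Strain by strain, 9 were higher with metformin and 11 lower. On the log2 scale the largest difference was -0.18 ± 0.09 (SE) in (CC043/GeniUncJ x CC042/GeniUncJ)F1, with 136 ± 19.6 CPM (SD, n = 25) without and 124 ± 18.4 CPM (SD, n = 12) with the drug. In CPM the means differed more in (CC004/TauUncJ x CC019/TauUncJ)F1, at 126.4 ± 21.4 (SD, n = 26) without and 112.2 ± 27.4 (SD, n = 7) with it, or -0.13 ± 0.07 (SE, log2).

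No interaction of metformin with diet, sex or strain passed the threshold. The interaction with diet was 0.06 ± 0.03 (SE, log2), with an adjusted p of 0.676 and 0.00564% of genes called. With sex it was 0.03 ± 0.03, with an adjusted p of 0.577 and 1.87% of genes called. The F for the interaction with strain was 0.941 over 19 terms, with an adjusted p of 0.781 and 8.87% of genes called. The order of the strains stood in the treated animals, which are other mice than the untreated ones. Their strain means ran from 59.2 ± 7.54 to 146 ± 21.3 CPM (SD, n = 12 each) in the same lowest and highest strains, and the same 8 strains held the lowest 8 places. Over the 20 strains the untreated and treated means had a Pearson's r of 0.987 and a Spearman's rho of 0.989. Both sets share the parental lines and the laboratory's processing.

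Genes beside Nnt on chromosome 13 had low correlations with its strain means. Among the genes tested, the annotation placed 14 others within 2 Mb of its start. They included Paip1, a partner of the poly(A)-binding protein, Hmgcs1, the cytosolic HMG-CoA synthase, and Mrps30, a mitochondrial ribosomal protein. Over the 20 strain means, Pearson's r with Nnt was -0.105 for Paip1, -0.0905 for Hmgcs1 and -0.273 for Mrps30. For Zfp131 it was -0.462. For the 8 neighbours expressed at a mean of 1 log2 CPM or more, the median size of r was 0.168, against 0.2 over 10348 genes of other chromosomes. These points share libraries and scaling, and strains share parents.

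The genes whose strain means were most like those of Nnt lay on other chromosomes, as did most expressed genes. Other chromosomes held 10348 genes at a mean of 1 log2 CPM or more. Chromosome 13 held 8 within 2 Mb of Nnt, 20 at 2 to 10 Mb, 74 at 10 to 30 Mb and 263 beyond. The genes most like Nnt were chosen as the 10 highest in the size of r among expressed genes with a name. Maob, a mitochondrial monoamine oxidase, had an r of 0.85, and Hypk, a partner of the N-terminal acetylation complex, 0.84. Pde2a, a phosphodiesterase, had 0.804, Ablim3 0.782, Etfa, which passes electrons from fatty acid oxidation to the respiratory chain, 0.763, Phf13 0.758 and the small GTPase Cdc42 0.748. Tnfrsf1b, a receptor for tumour necrosis factor, had an r of -0.814, Copg2 -0.751 and the polymerase subunit Polr3c -0.746. The treated animals played no part in this choice and gave an r of their own for each gene. They are of the same 20 strains, and their strain means of Nnt had an r of 0.987 with the untreated ones. A likeness that arose by chance between strains can therefore recur in them, and these values are no independent check. Pde2a (0.769), Cdc42 (0.787), Maob (0.748) and Phf13 (0.682) had values of at least 0.682 in them. In the same animals the r of Hypk was 0.183, that of Copg2 -0.282 and that of Tnfrsf1b -0.384.

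Within strains, a different set of genes followed Nnt from animal to animal. Idh2, which makes NADPH in the mitochondrial matrix as Nnt does, stood first, with an r of 0.652 over the untreated animals after strain, sex, diet and identifier range were taken out. The next were Adck3, needed for coenzyme Q synthesis, at 0.587, Ogdh, a citric acid cycle enzyme, at 0.577, Myh7 at 0.573, and Atp2a2, the slow-fibre calcium pump, at 0.569. Myh2, the myosin of fast oxidative fibres, had 0.57, Coro6 0.552, Ppip5k1 0.55, Ldhb, the lactate dehydrogenase subunit of oxidative tissue, 0.548 and Hadha, of mitochondrial fatty acid oxidation, 0.541. In Idh2 the r was 0.655 in females and 0.65 in males. Taken strain by strain it was above 0 in 19 of 20, with a median of 0.715 and a lowest value of -0.436. Without the libraries against their label it was 0.69, and in treated animals 0.74. For Myh7 it was above 0 in 20 of 20 strains. All of these values come from shared libraries. Slow-fibre markers varied over the same animals, and their part in each r was not tested.

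The lists written for NADPH metabolism and for cell types place these values. Within strains, the summed slow-fibre markers had an r of 0.583 with Nnt and the summed genes of mitochondrial NADPH supply 0.566. In the latter list Idh2 and Nadk2, the mitochondrial NAD kinase, stood at 0.652 and 0.501, while no other gene of the 10 had an r above 0.214. The list named for mitochondrial peroxide removal gave 0.0305 for its sum and complex I 0.0806, or 0.129 without the libraries against their label. Sums of adipocyte markers (-0.25), fibroblast markers (-0.249) and macrophage markers (-0.214) went the other way. Without the libraries against their label these were -0.319, -0.309 and -0.362. Between strains, Idh2 (0.662), Nadk2 (0.565) and the slow-fibre markers Myl3 (0.592) and Tnnt1 (0.552) again had positive values, and all 7 slow-fibre markers had an r of at least 0.382. The collagens Col1a1 (-0.528), Col1a2 (-0.544) and Col3a1 (-0.509) had negative values. Of the other fibroblast markers, Pdgfra had -0.298, Lum -0.171 and Dcn 0.147. With the slow-fibre sum as a covariate, strains still differed in Nnt, with an F of 143.6 over 19 terms in place of 110.5.

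**Figure D4:**
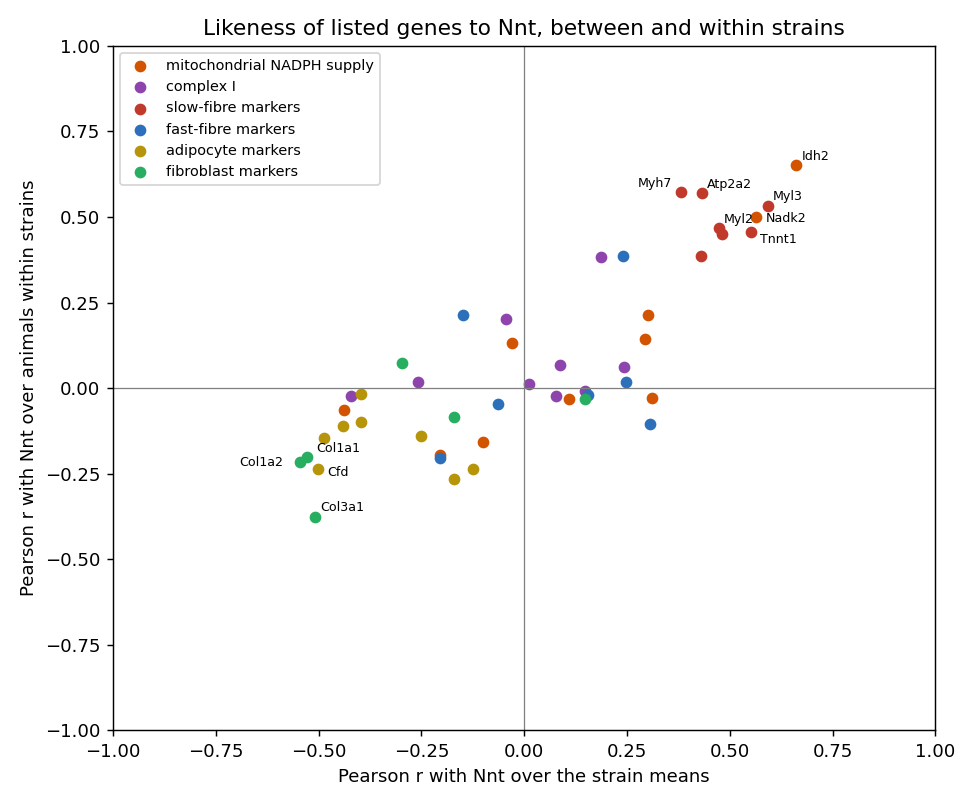
Pearson's r of listed genes with Nnt over the 20 strain means (x axis) and over untreated animals within strains (y axis), with 1 point per gene coloured by list. Idh2 lies at 0.662 and 0.652, slow-fibre markers lie in the upper right, and 8 of the 9 complex I genes lie at or below 0.202 on the y axis, with Ndufs1 at 0.383.

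Among other genes of mitochondria and of NADPH and NAD metabolism, the direction in males depended on the list. In both lists of NADPH supply more genes were lower than higher, as Nnt was, and in the other lists more were higher. Of 50 genes in 5 pathway lists, 25 (50%) were higher and 14 (28%) lower in males, where 29.5% and 35.7% of all genes were. In mitochondrial NADPH supply, 2 of 10 rose and 5 fell in males, with Idh2 at -0.07 ± 0.02 (SE, log2) and the one-carbon enzymes Mthfd1l at -0.41 ± 0.07 and Aldh1l2 at -0.15 ± 0.03. The list named for peroxide removal also holds the glutaredoxin Glrx5 and Sod2, the mitochondrial superoxide dismutase, whose product is hydrogen peroxide. In it, 6 of 10 were higher and the other 4 were not called, with Prdx5, a peroxiredoxin, at 0.2 ± 0.02 and Sod2 at 0.16 ± 0.01. All 9 complex I genes were higher in males, with Ndufa9 and Ndufa10 both at 0.14 ± 0.01. The list named for cytosolic NADPH supply also holds Txnrd1, a thioredoxin reductase that uses NADPH, and Pgls, which does not make it. In that list 3 of 9 were higher and 6 lower. The lower ones included Idh1 (-0.43 ± 0.03), G6pdx (-0.43 ± 0.05) and Pgd (-0.39 ± 0.03), the last 2 being enzymes of the pentose phosphate pathway. Of 12 genes of NAD synthesis and use, 5 were higher and 3 lower, and the nicotinamide riboside kinase Nmrk2 was higher in males by 1.81 ± 0.07. Adjusted p-values of the genes named here were at most 0.00666 (edgeR).

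On 44% fat, 19 of the 50 genes (38%) were higher and 8 (16%) lower, where 9.55% and 8.82% of all genes were. Their median log2 fold change was 0.02 against -0.002 over all genes. Complex I held 8 of the 19, with Ndufv1 at 0.09 ± 0.01 (SE) and Ndufa10 at 0.07 ± 0.01. Of the mitochondrial sources of NADPH, Idh2 rose by 0.12 ± 0.02, and Aldh1l2 and Mthfd2 fell by 0.23 ± 0.03 and 0.18 ± 0.05. In the list named for peroxide removal 4 rose and 1 fell, with Prdx5 at 0.08 ± 0.02 and Gpx1, a glutathione peroxidase, at -0.12 ± 0.03. Of the 9 genes in the cytosolic list 4 fell, among them Aldh1l1 (-0.29 ± 0.06), Pgd (-0.19 ± 0.03) and the malic enzyme Me1 (-0.07 ± 0.02). In the list of NAD synthesis and use, 5 rose and 1 fell. With this diet 3 of 7 slow-fibre markers rose, and the rise of Nnt was 0.05 with their sum as a covariate (adjusted p of 0.0099, edgeR).

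With metformin, 24 of the 50 genes (48%) were lower and 1 (2%) was higher, where 9.21% and 7.01% of all genes were. The differences were small, with a median of -0.04 on the log2 scale. They included Glud1, glutamate dehydrogenase, at -0.09 ± 0.01 (SE), Nadk2 at -0.05 ± 0.01, Txn2, mitochondrial thioredoxin, at -0.06 ± 0.01, Aldh1l1 at -0.25 ± 0.05 and Ndufa10 at -0.05 ± 0.01. The gene that rose was Gsr, glutathione reductase, at 0.05 ± 0.01. Like Nnt, Idh2 was not called, at -0.01 ± 0.02 with an adjusted p of 0.749 (edgeR), and neither was the slow-fibre gene Myh7, at 0.05 ± 0.03 with an adjusted p of 0.267. Collagens moved with the treatment, Col1a1 by -0.35 ± 0.06 and Col1a2 by -0.3 ± 0.05, and their part in the other differences was not tested. In the upper identifier range alone the collagen differences were -0.01 and 0.01.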

How the data were processed

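Gastrocnemius RNA from mice of 20 strains was sequenced by the authors from poly(A)-selected libraries, and read ends were aligned as single reads to a transcriptome of the 8 founders with EMASE in GBRS, on GRCm38 per the submitters' notes. The estimated counts per gene were deposited as whole numbers, after the authors removed genes with low counts in most libraries. The deposited variance-stabilised scores, which the authors made with DESeq2, served as an alternative. Division of reads between alleles and overlapping models enters these counts.

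Nnt was taken by its symbol. The gene and the lists were chosen with earlier results of these data known. Counts were scaled by TMM and tested in edgeR 4.0.16 (R 4.3.3) by the quasi-likelihood test with strain, sex, diet and identifier range as terms, over 16384 genes for untreated animals and 17740 genes for all animals. Identifier range splits animals into 544 with lower and 159 with higher numbers, and whether it marks a sequencing batch is not given. P-values were adjusted over all genes by the Benjamini-Hochberg method, and calls were made at 0.05. Log2 CPM used a prior count of 2, and low counts were removed by edgeR's default filter. Library totals of 27.4 M to 96.1 M counts set the counting precision. Alternatives used limma 3.58.1, DESeq2 1.42.0, other filters, marker covariates, each identifier range alone and subsets of libraries. The likeness of genes in subsets of animals was added after the data were seen. Genes named from each list were the called members with the largest changes, plus Idh2, Nadk2 and others given beside them after their values were seen. In simulated diet counts over 3889 genes, 100% of genes changed by 0.3 or 0.5 (log2) and 42.9% of those changed by 0.1 were called, against 0.271% of unchanged genes. The simulated animals were independent, with the same dispersion for every gene and no strain, sex or litter differences. These rates are therefore not those of the tests on the real counts. No sequence of Nnt is printed, since the tables used here hold none. Values of a few listed genes are not reported here.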

Additional observations from a re-analysis of the deposited data

Results flagged for a closer look

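Within strain, sex and diet, 78 groups of untreated animals were large enough for Dixon's test of a single high or low animal, and Nnt had such an animal in 4 of them, where chance gives about 1 in 20. A female of (CC001/UncJ x CC042/GeniUncJ)F1 on 44% fat had 166.5 CPM, with the others of its group between 144.1 and 150.2. A female of (CC002/UncJ x CC075/UncJ)F1 on 44% fat had 152.3 CPM, and its gap to the nearest of the others took 0.652 of the range of the group. One male of (CC030/GeniUncJ x CC002/UncJ)F1 on 44% fat was low at 51.5 CPM, below the others at 61.1 to 64.2. The female of (CC051/TauUncJ x CC060/UncJ)F1 with 92 CPM on 10% fat stood above the others at 64 to 72.6.

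The difference between the sexes varied between strains, with an F of 4.95 for the interaction (edgeR, adjusted p of 5.66e-09), from a female to male ratio of 1.08 to one of 1.63.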

How the results depend on the processing

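Under the alternatives run, the strain and sex differences in Nnt kept their direction and their calls, with F for strain from 30.4 to 143.6 and the sex difference from -0.46 to -0.10 (log2). The diet difference kept its call in all but the upper identifier range alone, where it was 0.05 with an adjusted p of 0.732. Leaving out each strain in turn (limma voom) gave 0.05 to 0.07 for diet, -0.41 to -0.37 for sex and -0.0082 to 0.0032 for metformin. The metformin difference, not called under any of them, changed sign in 7 of these 20 refits and in the lower range alone (0.00025).

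The upper range alone has 69 untreated animals, so fewer samples stand behind its values. There the interaction of sex with strain had an F of 2.24 (adjusted p of 0.304), that of diet with sex was 0.06, and the diet share of variance 0.0552%. Of the 50 pathway genes it called 0 as higher and 1 as lower for diet, 13 as higher and 5 as lower for sex, and 0 in either direction for metformin (edgeR). At an unadjusted p under 0.05 it had 3 higher and 4 lower for diet and again 0 for metformin. The sign changed there for metformin in Col1a2 (0.01), Gsr (-0.03), Idh1 (0.01), Kdr (-0.01) and Mthfd1l (0.23), for sex in Col3a1 (-0.08) and Mthfd2 (-0.06), and for diet in Ppargc1b (-0.01). With metformin, 2 pathway genes in place of 1 were higher in the lower range alone and with a mean of at least 5 CPM.

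The chain of CC002/UncJ, CC075/UncJ, CC042/GeniUncJ and CC043/GeniUncJ gave 11.4 CPM in treated animals. The other chain gave 7.45 CPM in the lower range alone and 10.1 without libraries against their label, both with intervals that include 0. The cause of these changes was not tested. Gene-level counts limit all of this, since they do not separate exons or alleles.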

Other observations

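Gpx1, a glutathione peroxidase found in the cytosol and in mitochondria, had a Pearson's r of -0.442 with Nnt within strains, over untreated animals, and of -0.256 over the 20 strain means. Both values share libraries with Nnt, and the gene was singled out after its values were seen.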
